A study of Mus musculus with 2 samples.

Results

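Lung fibroblasts are recognised by a small set of mesenchymal transcription factors and by the receptors for platelet-derived growth factor (PDGF). Of these, 10 genes were followed here: the PDGF receptors Pdgfra and Pdgfrb, and the transcription factors Tcf21, Tbx4, Tbx5, Foxf1, Meox2, Twist1, Twist2 and Prrx1. The data are a list of 17922 peaks from chromatin isolation by RNA purification and deep sequencing (ChIRP-seq), aimed at the endogenous miR-9 of MLg cells, a mouse lung fibroblast line (ATCC CCL-206). In ChIRP, formaldehyde fixes RNA to nearby chromatin, and biotinylated antisense probes pull the RNA down together with the DNA it touches. The samples were 1 miR-9 capture library and 1 input chromatin library of the same line, for which the labels give no treatment, and the peaks were called in the capture over the input. HOMER, the annotation program used for the list, names a gene for each peak by the nearest transcription start site (TSS), and peaks named for the 10 genes were kept. This gave 10 peaks of the 17922, named for 4 of the 10 genes, out of 21000 protein-coding genes in all. The score of each peak in the list was 0, so a peak is known only by its position and width, and the list gives no depth for either library. With 1 capture and no replicate, no test between samples could be made, and every interval below covers counting error only. Peaks do not measure expression, so the fibroblast identity of the line was not checked here.

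Pdgfra and Pdgfrb are receptor tyrosine kinases on the cell surface. Pdgfra answers PDGF from the epithelium and is needed for the myofibroblasts that build alveolar septa in mice, and Pdgfrb is best known for recruiting pericytes and other mural cells. Tbx4 and Tbx5 are T-box factors that act together in the lung bud mesenchyme, Foxf1 is a forkhead factor of the visceral mesoderm, and Tcf21 is a basic helix-loop-helix (bHLH) factor of lung mesenchyme and lipofibroblasts. Twist1 and Twist2 are bHLH factors of mesenchymal cells, and Meox2 and Prrx1 are homeobox factors of mesoderm and limb mesenchyme. The microRNA miR-9 silences mRNAs in the cytoplasm by pairing its seed, bases 2 to 8, with sites in them. The study asked where miR-9 sits in chromatin.

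The mature RNA named as the target of the probes is shown because every sequence comparison below refers to it, with the seed in capitals (RefSeq, GRCm38.p6).
miR-9-5p: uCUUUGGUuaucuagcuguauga
For Pdgfra, Prrx1 and Twist1, the sequence of the nearest peak named for the gene that lies outside repeats follows. Each is given 5′ to 3′ on the plus strand of mm10 (GRCm38.p6). The 300 bases shown hold the longest run that the peak shares with miR-9-5p. Capitals mark that run. In the Pdgfra peak it was 7 bases long and equal to bases 14 to 20 of miR-9-5p. In the Prrx1 peak it was the complement of bases 2 to 9, and so spanned the seed. In the Twist1 peak it was equal to bases 1 to 9.
Pdgfra, intron 1, chr5:75154222-75154521: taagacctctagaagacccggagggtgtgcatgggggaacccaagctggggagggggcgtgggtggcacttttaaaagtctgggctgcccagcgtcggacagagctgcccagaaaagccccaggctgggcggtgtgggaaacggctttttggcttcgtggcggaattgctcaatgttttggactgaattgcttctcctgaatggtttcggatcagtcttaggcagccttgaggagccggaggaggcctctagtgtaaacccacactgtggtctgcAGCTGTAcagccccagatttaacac
Prrx1, intron 1, chr1:163284994-163285293: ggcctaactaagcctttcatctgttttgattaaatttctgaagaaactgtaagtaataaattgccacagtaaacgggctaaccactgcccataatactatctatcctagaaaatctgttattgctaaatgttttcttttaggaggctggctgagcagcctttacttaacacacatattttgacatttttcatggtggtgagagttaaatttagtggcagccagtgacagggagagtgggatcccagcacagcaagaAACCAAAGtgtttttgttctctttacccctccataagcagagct
Twist1, intergenic, chr12:34039860-34040159: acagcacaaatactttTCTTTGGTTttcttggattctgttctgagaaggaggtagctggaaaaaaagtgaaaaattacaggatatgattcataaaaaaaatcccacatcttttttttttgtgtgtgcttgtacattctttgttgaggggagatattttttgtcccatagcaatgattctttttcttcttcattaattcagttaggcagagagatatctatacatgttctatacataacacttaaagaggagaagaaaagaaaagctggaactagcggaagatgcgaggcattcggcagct

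No peak was annotated to the promoter of any of the 10 genes, and the 10 peaks named for them were all distal. At least 1 peak was named for 4 of 10 (40%, 95% Clopper-Pearson interval 12.2 to 73.8), Pdgfra, Tcf21, Twist1 and Prrx1, against 7461 of 21000 protein-coding genes (35.5%). A promoter peak, in HOMER's annotation, was found for 0 of 10 (0%, interval 0 to 30.8), against 520 genes (2.48%). The distance to the nearest peak, whatever gene that peak was named for, was 1.3 kb at Pdgfra, 28.6 kb at Prrx1, 68.4 kb at Twist1, 81.4 kb at Tbx4, 81.6 kb at Tcf21, 93.2 kb at Pdgfrb, 96.5 kb at Meox2, 111.0 kb at Tbx5, 134.8 kb at Twist2 and 299.8 kb at Foxf1. Pdgfra alone had a peak centre close to a TSS, and the other 9 genes had none within 5 kb. The median of the 10 distances was 87.4 kb, against 42.0 kb over all protein-coding genes. A peak centre lay within 2 kb of a curated TSS for 1 of 10, against 6.64% of genes, and within 5 kb likewise for 1 of 10, against 12.2%. Within 50 kb there were 2 of 10, Pdgfra and Prrx1, against 54.8% of genes, and the interval of that share ran up to 55.6%. Within 100 kb there were 7 of 10, against 74.5%.

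**Figure D1:**
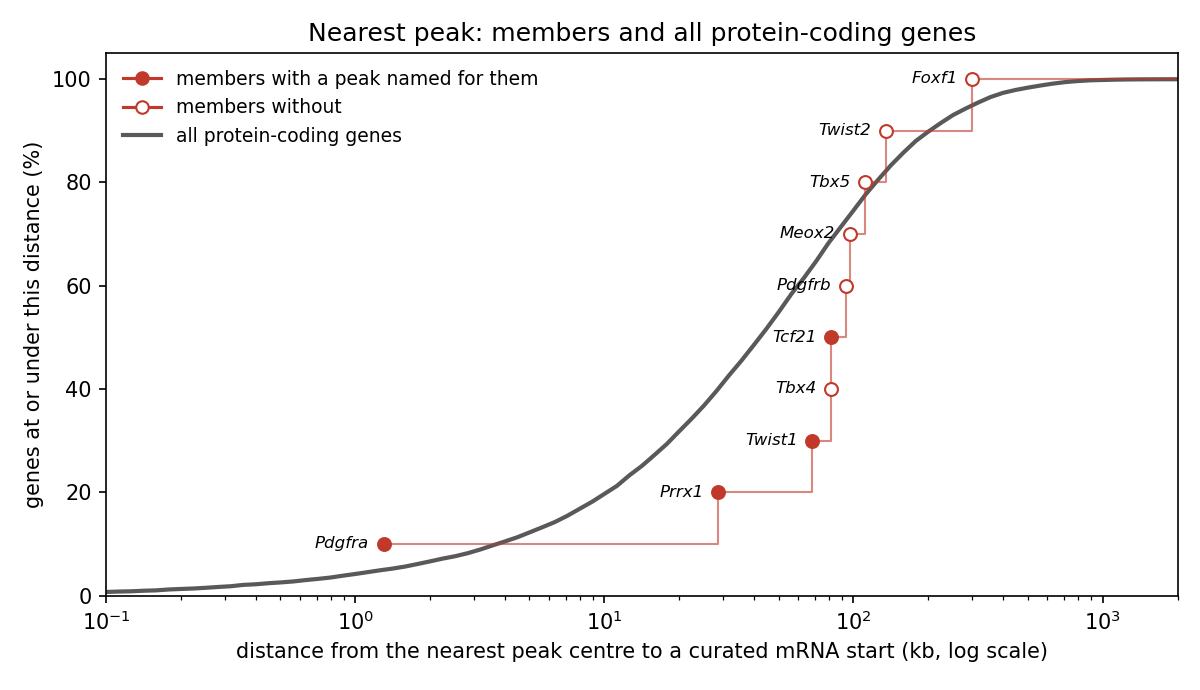
Distance from a curated mRNA start to the nearest miR-9 capture peak centre (x axis, kb, log scale) against the cumulative percentage of genes (y axis), for the 10 genes (red circles, filled where a peak was named for the gene) and all protein-coding genes (grey line). From 28.6 to 96.5 kb the red steps run right of the grey line, while Pdgfra at 1.3 kb lies left of it.

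Pdgfra had the peak nearest to a TSS. The peak, chr5:75153989-75154521, was 533 bases wide and lay wholly in intron 1, in no repeat and in sequence that is unique in the assembly (median of 1 copy per 32-base word). Pdgfra has 3 curated mRNA starts, and the peak centre was 2004 bases downstream of the first, 1319 bases downstream of the next and 1911 bases upstream of the third. The peak thus fell between alternative starts of the gene and overlapped no exon of a curated mRNA. Its GC content was 57.6%, against a median of 42.2% over all peaks. By the distance to its nearest peak, Pdgfra stood at percentile 5.03 of all protein-coding genes. A second peak inside Pdgfra, chr5:75167471-75167586, was 116 bases wide, non-repeat and unique, and lay 15.3 kb from the first start in intron 4 of a transcript with 8 introns. HOMER named it for Mir7025, a microRNA gene whose start is 9303 bases from the peak centre, so it was not among the 10 peaks.

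Further peaks around Pdgfra were named for its neighbours. The nearest upstream peak, 31.0 kb from the first start, was named for Gm19583. A peak 341.1 kb downstream was named for Kit, the stem cell factor receptor and a relative of Pdgfra in the same gene cluster. The stretch free of peak centres around the first start of Pdgfra was 33.0 kb, against a median of 226.5 kb over all protein-coding genes.

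Pdgfrb, on chromosome 18, had no peak named for it and none inside the gene. Its nearest peak, chr18:60951726-60952248, was centred 93.2 kb upstream of the start and was 523 bases wide, in intron 4 of Camk2a, a calcium-dependent kinase gene, and was named for Mir7220. This non-repeat peak shared a run of 11 bases with miR-9-5p, longer than the run in any of the 10 peaks named for the genes. The first peak downstream was 112.8 kb away, in an intron of Hmgxb3. Within 500 kb of the Pdgfrb start there were 15 peaks, the most around any of the 10 genes. This was 15 peaks per Mb (95% Poisson interval 8.4 to 24.7), against 4.17 per Mb on chromosome 18. The same windows of all protein-coding genes had a mean of 9.18 per Mb. The 15 peaks did not lie around Pdgfrb itself. Of the 15, 10 lay between 324.5 and 489.8 kb upstream, where 4 were named for Ndst1, a heparan sulfate enzyme, 3 for G630071F17Rik and 2 for Synpo.

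Prrx1 had 2 peaks, both downstream of its start on the minus strand of chromosome 1. The peak in intron 1, chr1:163284764-163285293, lay 28.6 kb from the start, was 530 bases wide and was unique sequence without a repeat. Its run of 8 bases shared with miR-9-5p reads as the seed complement on the plus strand, so the Prrx1 transcript itself, made from the minus strand, carries the same letters as miR-9. The other peak, chr1:163243604-163245203, was annotated to the transcription termination site at 69.2 kb. At 1600 bases it was wider than 98.6% of all peaks, counting ties evenly. Of these bases, 85 lay in the last exon and the rest beyond the end of the gene. It was the only peak of the 10 with a run of at least 6 CA or TG units (10%), against 15.2% of all peaks. The nearest peak upstream of Prrx1 was 378.0 kb away.

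Twist1 had 5 peaks named for it, which only 637 of the 9005 genes that HOMER names (7.07%) matched or passed, 1 being the median. All 5 lay downstream, at 68.4, 70.6, 82.4, 114.5 and 234.5 kb, and they were all the peaks within 500 kb. On the upstream side the nearest peak was 1622.0 kb away, so that the stretch free of peak centres around the Twist1 start was 1690.3 kb, at percentile 97.8 of all protein-coding genes. The last 2 peaks lay in introns 27 and 23 of Hdac9, the histone deacetylase gene next to Twist1, whose body is known to hold Twist1 enhancers in mouse embryos. Peaks of Twist1 were mostly LINE sequence, since 4 of the 5 lay in L1 elements (L1Md_A in 2 of them, Lx5c and L1_Mm). The 32-base words of these 4 peaks occurred at a median of 8939.5, 5115, 10866 and 4044.5 places of the assembly, in the order of their distance. Reads of such sequence can be placed at any of the copies, so the position of these peaks next to Twist1 is not certain from the list. The fifth, chr12:34039860-34040276 at 82.4 kb, was 417 bases wide, unique and not in a repeat, and is the Twist1 peak printed above. Without the repeat peaks, Twist1 therefore had 1 peak.

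The L1 peaks at 68.4 and 114.5 kb held the same stretch of L1 on opposite strands. Over 127 bases, 125 were identical (98.4%), and they are printed to show this, both in the direction of the first, with capitals at the bases that differ.
Twist1, 68.4 kb, chr12:34025961-34026087, plus strand: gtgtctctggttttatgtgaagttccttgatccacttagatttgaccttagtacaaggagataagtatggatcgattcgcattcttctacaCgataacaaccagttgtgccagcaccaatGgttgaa
Twist1, 114.5 kb, chr12:34072051-34072177, minus strand: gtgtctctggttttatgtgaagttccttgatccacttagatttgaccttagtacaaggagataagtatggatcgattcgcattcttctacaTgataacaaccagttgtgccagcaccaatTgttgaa
This stretch filled the whole of the first peak. A 32-base word of it was present in 75 peaks of the list, 73 of them in LINEs, or 2.18% of the 3345 LINE peaks. The alignment score of this pair was 123, and no other pair of the 10 peaks scored above 15.

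Tcf21 had 2 peaks named for it, both upstream and both far. They were centred 174.9 and 191.8 kb from the start on chromosome 10, in intergenic sequence, and were 121 and 145 bases wide. The first lay in a B1 short interspersed element, and its 32-base words had a median of 549 copies. The other lay in a URR1A DNA transposon, but its words were unique, and it is shown in full as the unique Tcf21 peak, with its 7-base run complementary to bases 17 to 23 of miR-9-5p in capitals.
Tcf21, intergenic, chr10:23011821-23011965: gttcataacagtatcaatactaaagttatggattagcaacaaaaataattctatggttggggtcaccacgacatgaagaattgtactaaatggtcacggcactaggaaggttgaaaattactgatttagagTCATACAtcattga
The peak nearest to Tcf21 was neither of these. It lay 81.6 kb downstream in an LTR element and was named for Tbpl1, a TATA-box binding protein relative.

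The remaining 5 transcription factor genes, Tbx4, Tbx5, Foxf1, Meox2 and Twist2, had no peak named for them and none inside the gene. The nearest peak of Tbx4 was 81.4 kb from its second start, 159 bases wide and named for Gm20759. The nearest peak of Tbx5, 593 bases wide, lay 111.0 kb upstream and was named for Tbx3os2, a noncoding gene beside the T-box gene Tbx3. For Meox2 it lay 96.5 kb downstream in an L1Md_T element, was 752 bases wide and was named for Agmo, an ether lipid enzyme. For Twist2 it was an L1Md_A peak of 142 bases, 134.8 kb upstream and named for Asb1. Foxf1 stood farthest from any peak, at percentile 94.9 of all protein-coding genes, with 299.8 kb to a peak of 127 bases named for 1700018B08Rik. Around its start, 840.0 kb were free of peak centres. Where peaks were instead given to the nearest start of a protein-coding gene, Tbx4 gained 3 peaks, Meox2 1 and Pdgfra 2, and 6 of 10 genes had a peak (60%), against 39.3% of all protein-coding genes.

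**Figure D2:**
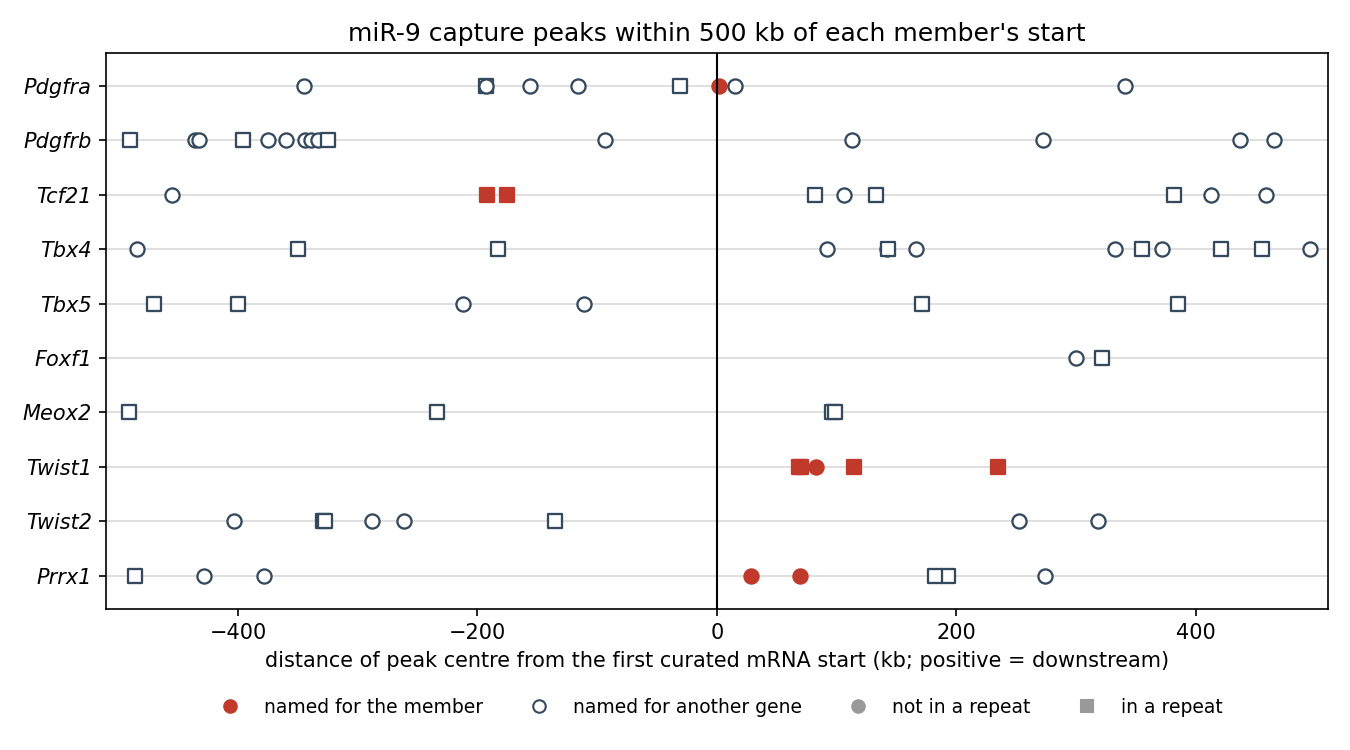
All 79 miR-9 capture peaks within 500 kb of the first curated start of each gene (x axis, kb, positive downstream; 1 row per gene). Filled red symbols are peaks named for that gene, open symbols peaks named for another, squares lie in a repeat and circles do not. All 5 Twist1 peaks lie on the downstream side, and the stretch around Foxf1 is empty up to 299.8 kb.

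The windows of 500 kb on each side of the 10 starts held 79 peaks in 10 Mb, or 7.9 per Mb (95% Poisson interval 6.25 to 9.85), and a median of 8 per window (range 2 to 15), against a mean of 9.18 per Mb and a median of 8 in the same windows of all protein-coding genes. The whole assembly had 6.58 per Mb. Twist1 and Meox2 had 5 and 4 peaks in their windows on the sparse chromosome 12, which had 2.47 per Mb, and both intervals included that density. Foxf1 had 2 peaks (2 per Mb, interval 0.242 to 7.22), against 6.94 per Mb on its chromosome. The interval excluded the density of the chromosome for Pdgfrb alone of the 10. That interval, 8.4 to 24.7, included the mean of 9.18 per Mb in the windows of all protein-coding genes. Of the 79 peaks, 38 lay upstream and 41 downstream of the start, and 3 were promoter peaks, of the neighbours Raet1d, Ints2 and Asb1.

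**Figure D3:**
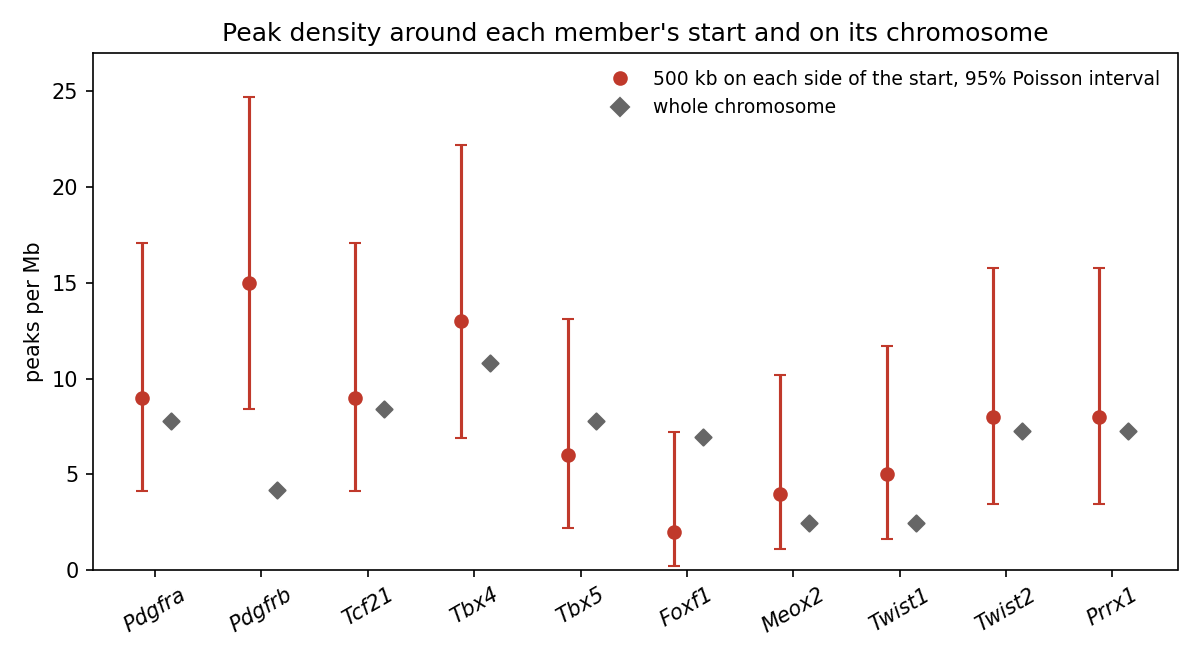
Peaks per Mb (y axis) within 500 kb on each side of each gene's first start (red circles, bars are 95% Poisson intervals) and on its whole chromosome (grey diamonds). Pdgfrb, at 15 per Mb, is the only one of the 10 whose interval lies above the diamond.

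No long word of miR-9 was found in the 10 peaks. A run of at least 10 bases shared with miR-9-5p on either strand was present in 0 of 10 (0%, interval 0 to 30.8), against 6.04% of all peaks. Runs of 8 bases or more were in 2 of 10 (20%), the unique peaks of Prrx1 and Twist1, against 26.4%. Longer runs lay in peaks of the surrounding windows. There, 9 of the 79 peaks held 10 bases or more (11.4%, interval 5.34 to 20.5), against 6.04% of all peaks. Such runs were in 9.71% of all peaks longer than 250 bases and 1.96% of those of 250 bases or less. The longest were runs of 12 bases, in 2 of the 79 (2.53%, interval 0.308 to 8.85), against 0.854% of all peaks. Both lay downstream of Tbx4, in peaks 627 and 974 bases wide. The first was at 143.3 kb in an RLTR15 element. The other was at 421.1 kb in a B1F2 element within Med13, which codes for a Mediator subunit. A further peak downstream of Tbx4, at 166.4 kb and in no repeat, held a run of 11 bases. The window of Twist2 held a run of 11 bases in a peak named for the phosphatase gene Ilkap. They are printed on the strand that reads like miR-9, with up to 20 bases on each side and the shared run in capitals.
Tbx4 window, bases 12 to 23, chr11:86029663-86029714, minus strand: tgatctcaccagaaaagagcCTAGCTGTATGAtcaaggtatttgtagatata
Tbx4 window, bases 3 to 13, chr11:86053021-86053052, minus strand: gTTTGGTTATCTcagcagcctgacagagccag
Tbx4 window, bases 9 to 20, chr11:86307700-86307751, minus strand: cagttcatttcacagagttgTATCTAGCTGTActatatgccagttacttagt
Twist2 window, bases 6 to 16, chr1:91398300-91398350, plus strand: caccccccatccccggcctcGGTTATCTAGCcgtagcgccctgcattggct

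Peaks of 250 bases or less were called narrow. All 5 narrow ones, of Tcf21 and Twist1, lay in repeats and at least 68.4 kb from the start, against 51.4% of all narrow peaks in repeats. Of the 5 wide ones, 1 lay in a repeat, the Lx5c peak of Twist1, against 46.3% of all wide peaks, and the other 4 were the peaks of Pdgfra, Prrx1 and, at 82.4 kb, Twist1. The median width was 281 bases (range 88 to 1600), against 408 over all peaks. In total 6 of 10 lay in a repeat (60%, interval 26.2 to 87.8), against 48.7%, 4 of 10 in LINEs, all of them at Twist1, against 18.7%, and 5 of 10 were high copy, with most of their 32-base words at 5 or more places, against 21.7%. A distance of over 50 kb to the named start was measured for 8 of 10 (80%, interval 44.4 to 97.5), against 37.7% of all peaks. The 5 peaks of Twist1 share 1 locus and are not independent counts.

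**Figure D4:**
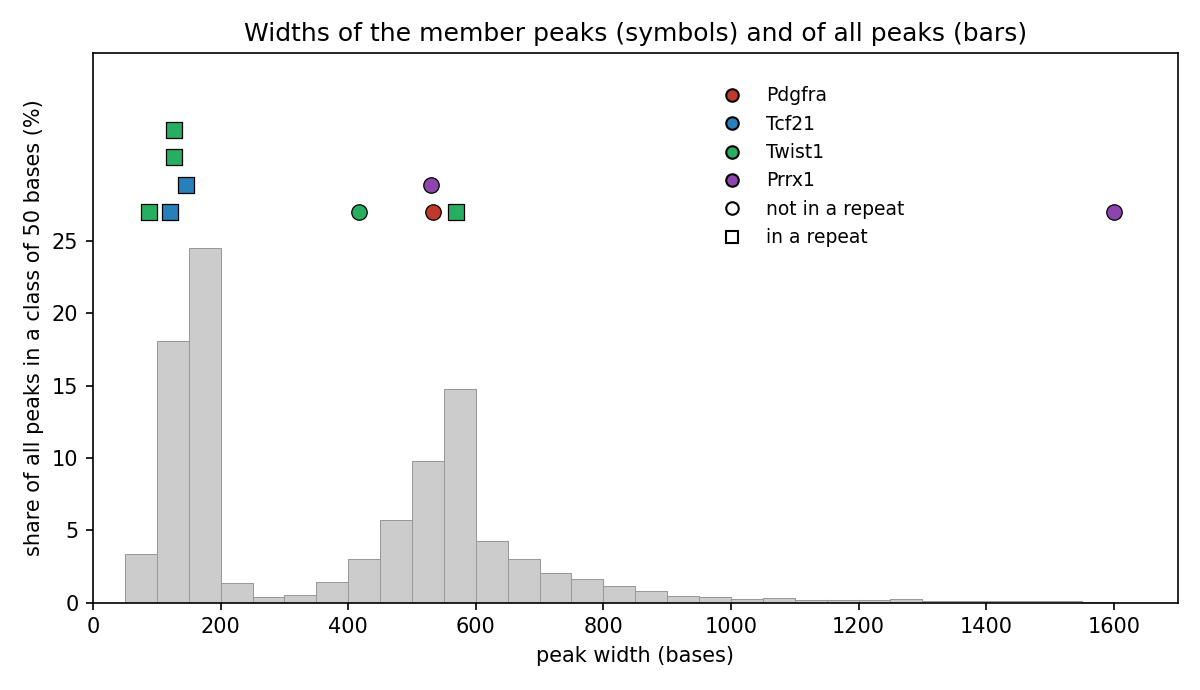
Widths of the 10 peaks (symbols, coloured by gene, squares in a repeat and circles not, stacked only to be seen) and of the peaks up to 1600 bases (bars, percent of all 17922 peaks per class of 50 bases). The 5 narrow symbols are all squares, and the Prrx1 peak at the termination site is the widest at 1600 bases.

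The promoters of the genes were read next, as the list had no peak there. RefSeq promoter sequence, from 250 bases before to 50 after the start, was matched for 7 of 10 genes, all but Pdgfrb, Tbx5 and Foxf1. A G-quadruplex (G4) motif, a sequence able to fold into a 4-stranded structure, counted on both strands wherever 4 stretches of 3 or more G stood 1 to 7 bases apart, and a G within a longer run could serve as the base between, was present in 6 of 7, all but Tcf21 (85.7%, interval 42.1 to 99.6), against 4150 of 16853 genes (24.6%). With 4 separate G runs required, a rule added after seeing the data, it was present in 4 of 7 (57.1%, interval 18.4 to 90.1), all but Tcf21, Tbx4 and Twist2, against 3884 genes (23%). The median GC content was 59.0% in the 7, against 57.7%. Over all genes with a promoter sequence, 2.99% of those with the motif had a promoter peak, against 2.39% of those without it. The shortest stretch of 4 separate runs is shown for the promoters of Meox2, Twist1 and Prrx1, since G4 structures are a subject of the study. It is printed on the strand that carries the G runs, with these in capitals. That of Pdgfra, chr5:75152044-75152069 on the minus strand, is not printed. The stretches of Pdgfra and Prrx1 lie on the strand opposite the gene, and those of Meox2 and Twist1 on the gene strand. Of the 6 genes with the motif by the first rule, Pdgfra alone had a peak within 2 kb of a start. Over all genes with a promoter sequence, such a peak was found for 7.69% with the motif and 6.47% without it.
Meox2 promoter, chr12:37108349-37108371, plus strand: GGGcccgacGGGcGGGcgttGGG
Twist1 promoter, chr12:33957500-33957524, plus strand: GGGGGGaGGGGGcgaGGGaGGGGGG
Prrx1 promoter, chr1:163313754-163313771, plus strand: GGGaGGGaGGGaaaaGGG
A word of 8 bases of miR-9-5p was in 1 of the 7 promoters, that of Meox2 (14.3%), against 8.58%, and none held 10 bases, against 0.487%. Of the 10 peaks, 1 held the G4 motif by both rules, that at the Prrx1 termination site (10%), against 5.65% of all peaks by the first rule and 5.08% by the stricter one. A motif is a match of letters and says nothing of the structure in the cell.

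Among the partners of the PDGF receptors, all 4 ligand genes had a peak named for them and none had a promoter peak. The nearest peaks were 4.1 kb from Pdgfa, 17.0 kb from Pdgfb, 87.7 kb from Pdgfc and 291.5 kb from Pdgfd. Of 6 related receptor kinases, 3 had a peak, Kdr, Kit and Flt1, none at a promoter. Of 16 genes that carry the PDGF receptor signal in the cell, 11 had a peak (68.8%). Among them, peak centres lay within 2 kb of a start at the adaptor genes Shc1 (209 bases upstream, its promoter peak), Nck1 (1765 bases downstream) and Grb2 (1926 bases upstream). The median distance to the nearest peak was 10.5 kb over the 16 signalling genes, 52.4 kb over the 4 ligands and 60.2 kb over the 6 related kinases, against 42.0 kb over all protein-coding genes.

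Relatives of the transcription factors had a peak in 40 to 83.3% of a list, against 35.5% of all protein-coding genes. Of 15 other T-box genes 6 had a peak (40%), and 3 of them lay within 2 kb of a start, at Tbr1 (189 bases), Mga (616 bases) and Tbx20 (1900 bases), all downstream. Of 13 bHLH relatives and partners 6 had a peak (46.2%), with a promoter peak 281 bases upstream of Tcf3, which codes for the E proteins that pair with Twist and Tcf21. Of 7 forkhead genes 4 had a peak, among them Foxp1 with 14 and Foxp2 with 10, and of 6 homeobox relatives 5 had a peak, none at a promoter. Of 22 other regulators of lung mesenchyme 14 had a peak (63.6%), and the only promoter peak was 34 bases upstream of the homeobox gene Meis2. In all, 53 of these 89 related genes had a peak, against 35.5% of all protein-coding genes. Of the 89, 3 had a promoter peak, against 2.48%, and 9 a peak centre within 2 kb, against 6.64%. These lists were chosen with earlier results of the data known and hold genes of different lengths, so their shares are a description.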

How the data were processed

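MLg chromatin was captured with biotinylated probes that the labels name as antisense to mature miR-9 (the methods name another microRNA at this step), with input chromatin as control, 1 library each. Per the labels and methods, reads were trimmed with Trimmomatic (0.36), aligned with Bowtie2 to mm10 and cleared of duplicates, peaks were called with MACS over the input, with a cutoff on the unadjusted p-value and more than 1 shift size, merged with bedtools and annotated with HOMER. A control-probe library was not analysed here, and a filter for artefact regions is not given in the sources used here. The score that the authors deposited was 0 for every peak. Annotation cells split at commas were rejoined in 8093 rows, and 64 peaks had no gene name.

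Peak centres were set against RefSeq GRCm38.p6, in which deposited and recomputed distances were equal within 1 base for 10 of the 10 peaks. Sequences were read from the same assembly with pysam (0.24.0), and exact intervals came from SciPy (1.17.1). No test was run, since each group had 1 library. Alternatives covered the gene assignment, width, repeats, copy number, distance, word length and window. The functions were tested on simulated data. All 10 genes are named, with the genes of their nearest peaks. Of each related list, the rule was to name those with a promoter peak or the 3 nearest peaks. It was not kept throughout. Kit and Flt1 were named for having a peak, while Flt3 and Csf1r, with nearer peaks, were left out. Foxp2 was named and Foxf2, with a nearer peak, was not. Some other genes of the lists, and other neighbours, were named after their values were seen. The value of a single gene of these lists is not reported here. The genes and lists were chosen with earlier results of these data known.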

Additional observations from a re-analysis of the deposited data

How the results depend on the processing

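Of 30 alternatives to the values above, 17 left them within their interval or within 1.5 times the count. The tally is not a measure of robustness, since some of the 17 were fixed in advance. None of the 10 peaks shared a run of 10 bases with miR-9-5p. The share therefore had to stay at 0 for runs of 12 bases and for wide or narrow peaks alone. Its interval, 0 to 30.8%, also took in 20% for runs of 8 bases. The median width was also counted among the 17, though it was 281 bases in the main setting and 531.5 without repeats. Of the alternatives, 2 were chosen after seeing the data. Requiring 4 separate G runs left the promoter motif in 4 of 7 genes in place of 6. Counting genes that a peak overlaps, whatever its name, gave 2 of 10 genes (Pdgfra and Prrx1) in place of 4. Narrow peaks alone also left 2 genes (Tcf21 and Twist1). The number of peaks, 10, became 16 with the nearest protein-coding start, 5 with wide peaks only, 5 with narrow peaks only, 4 without repeats, 5 without high-copy peaks and 6 within 100 kb. A promoter criterion of 2 kb or 5 kb from the start HOMER gives, or of 2 kb from any curated start, gave 1 gene (Pdgfra) in place of 0. Density around the starts was 3.5 per Mb for wide peaks, against 3.46 in the whole assembly, and 4.4 for peaks outside repeats, against 3.37. The windows of all protein-coding genes were not filtered in this way. Unfiltered, they held a mean of 9.18 per Mb, against 6.58 in the whole assembly. These filters keep fewer peaks by construction. No paired analysis was possible because each group had 1 library. Without scores or read counts, neither the strength of a peak nor the depth behind a missing one is given, so a gene without a peak is a gene at which none was called.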

Other observations

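Marker genes of other lung cell types were counted in the same way, and their peaks say nothing of the cells present. Of 12 lung epithelial genes 5 had a peak named for them (41.7%), of 8 endothelial genes 1, Cdh5 (12.5%), of 8 leukocyte genes 5 (62.5%), and of 8 genes of smooth muscle and pericytes 4 (50%), against 35.5% of all protein-coding genes. The only peak of these lists that HOMER annotated to a promoter lay 755 bases upstream of Cnn1, the smooth muscle calponin gene. A peak centre within 2 kb of a start was measured for Cnn1, for Acta2, the smooth muscle actin gene (1961 bases downstream), and for the macrophage gene Cd68 (257 bases downstream). The Acta2 peak was 4310 bases wide and the Cd68 peak 769, so both spanned the start. HOMER annotated them to an intron and an exon.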
